A study of Mus musculus with 14 samples.

Results

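Trib3, the gene of a pseudokinase that binds AKT and ATF4, and 9 further genes of the integrated stress response were followed in mouse splenocytes. The members were picked by name, with earlier results of the same arrays in view, and a probe was taken for a member when its accession mapped to the member's symbol in RefSeq. The 10 members were covered by 12 of 56605 non-control probes and were 10 of the 24908 genes tested. All 12 probes were well above background on all 14 arrays, so no member was lost to the filter on dim probes.

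The integrated stress response begins when 1 of several kinases phosphorylates the translation factor eIF2, which lowers protein synthesis in general and favors translation of Atf4 mRNA. The transcription factor ATF4 then switches on genes of amino acid supply and stress adaptation, among them Asns, Chac1, Sesn2, Ddit3 and Trib3. Cells can meet this response when amino acids run short or when the endoplasmic reticulum is under stress.

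The study asked which spleen genes depend on Sting once mice are immunized. All 14 mice were C57BL/6 by their labels, 10-14 weeks old, and all were injected with CFA + CII (Freund's complete adjuvant with chick type II collagen, the collagen-induced arthritis model) 2 weeks before the spleen was taken. The 7 WT mice were bought from a national animal center, and the 7 Sting gt/gt mice descend from a line of another laboratory that carries the ENU-made golden ticket allele of Sting (Tmem173gt), so genotype and origin of the line cannot be told apart. Untreated mice of either genotype were not analysed here. The sample titles say spleen, and the paper describes the array samples as isolated splenocytes. Its cell isolation pressed the organ through a strainer and lysed red blood cells. In such mixed cells fewer cells of a type and less RNA per cell cannot be told apart.

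RNA of each mouse was read on 1 one-colour Agilent array, and values below are log2 signals relative to the 75th percentile of the same array. Arrays of both genotypes were scanned on 2 days, replicates 1 to 3 on scan day 1 and replicates 4 to 7 on scan day 2. On scan day 2 the WT arrays and the 4 Sting gt/gt arrays sat on different slides, so slide and genotype cannot be told apart there. Between 30781 and 34400 probes per array were well above background, and arrays correlated with each other at 0.962 to 0.993. The targeted gene, Sting1, was detected at 3.10 ± 0.17 (SD, n = 7) in WT and 3.14 ± 0.11 (SD, n = 7) in Sting gt/gt mice. The allele is a single-base change, so an mRNA level does not check the genotype labels. The filter on dim probes was passed by 8 of 8 B cell and 8 of 8 T cell markers, which does not tell spleen from other lymphoid tissue.

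ATF4 with a C/EBP partner binds the C/EBP-ATF response element, whose core was searched for here as TGATGNAA on both strands, from 250 bases before to 50 bases after each gene's start in RefSeq (GRCm38.p6). This core was found in 4 of the 10 members and in 3.97% of all 32851 such windows. The stretches below carry it in Trib3, Chac1 and Asns, whose levels rose and fell together over the arrays, and in Atf3, whose correlation with Trib3 was negative. The last stretch carries the cyclic AMP response element TGACGTCA of Ppp1r15a, a motif of 1.79% of all windows. Capitals mark the motif, which reads as its reverse complement in Trib3, Chac1 and Atf3.
Trib3, chr2:152344028-152344057, minus strand: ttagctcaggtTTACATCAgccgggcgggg
Chac1, chr2:119351023-119351082, plus strand: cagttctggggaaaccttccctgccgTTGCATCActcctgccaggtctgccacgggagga
Asns, chr6:7693210-7693269, minus strand: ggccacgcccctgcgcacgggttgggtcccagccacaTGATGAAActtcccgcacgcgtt
Atf3, chr1:191183410-191183469, minus strand: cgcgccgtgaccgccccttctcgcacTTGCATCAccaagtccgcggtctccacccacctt
Ppp1r15a, chr7:45526269-45526328, minus strand: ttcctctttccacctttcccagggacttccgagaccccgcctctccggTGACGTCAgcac
The match began 15 bases after the annotated start in Trib3, and 193 bases before it in Chac1, 110 in Atf3, 23 in Asns and 12 in Ppp1r15a. Atf4, Ddit3, Sesn2, Ddit4 and Eif2ak3 held neither set of letters in this window. Their Pearson's r with Trib3 over the arrays was 0.69, 0.77, 0.85, -0.04 and 0.02. Atf4, Ddit3 and Sesn2 thus moved with Trib3 without a match in this window. Sequence outside the window was not searched. These matches describe letters only, and binding was not measured.

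Trib3 had the widest spread of the members. In WT mice its log2 signal was lowest at -1.68, with a median of 1.24 and a highest value of 3.24. In Sting gt/gt mice it ranged from -1.63 over a median of -0.70 to 0.49. The 3 WT arrays of scan day 1 stood highest, and 6 of the 7 WT arrays lay above every Sting gt/gt array. The remaining one, WT replicate 7, lay below every Sting gt/gt array, so the genotypes overlapped. Mean Trib3 was 1.20 ± 1.57 (SD, n = 7) in WT and -0.67 ± 0.64 (SD, n = 7) in Sting gt/gt mice, a difference of -1.88 (standard error 0.57), or 3.67-fold lower. Without WT replicate 7 the difference was -2.36 and the genotypes did not overlap, which held for 0.0562% of all genes in this direction. Trib3 was chosen with the genotype comparison in view, and WT replicate 7 was singled out by its own Trib3 value, so nothing is read from this share.

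Trib3 was lower in Sting gt/gt mice on both scan days. On scan day 1 WT averaged 2.51 ± 0.63 (SD, n = 3) and Sting gt/gt -0.28 ± 0.71 (SD, n = 3), a difference of -2.79. On scan day 2 WT averaged 0.23 ± 1.30 (SD, n = 4) and Sting gt/gt -0.97 ± 0.45 (SD, n = 4), a difference of -1.19. The genotypes did not overlap on scan day 1, which 3.77% of all genes tested did in this direction, and overlapped on scan day 2 through WT replicate 7. Within the slides that held both genotypes, Trib3 was lower by -3.07 on the first (2 WT arrays, 1 Sting gt/gt array) and by -2.75 on the second (1 array of each). The SD of Trib3 over the 14 arrays, 1.51, was above that of 99.6% of the genes tested, and its highest array exceeded its lowest 30.2-fold.

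**Figure D1:**
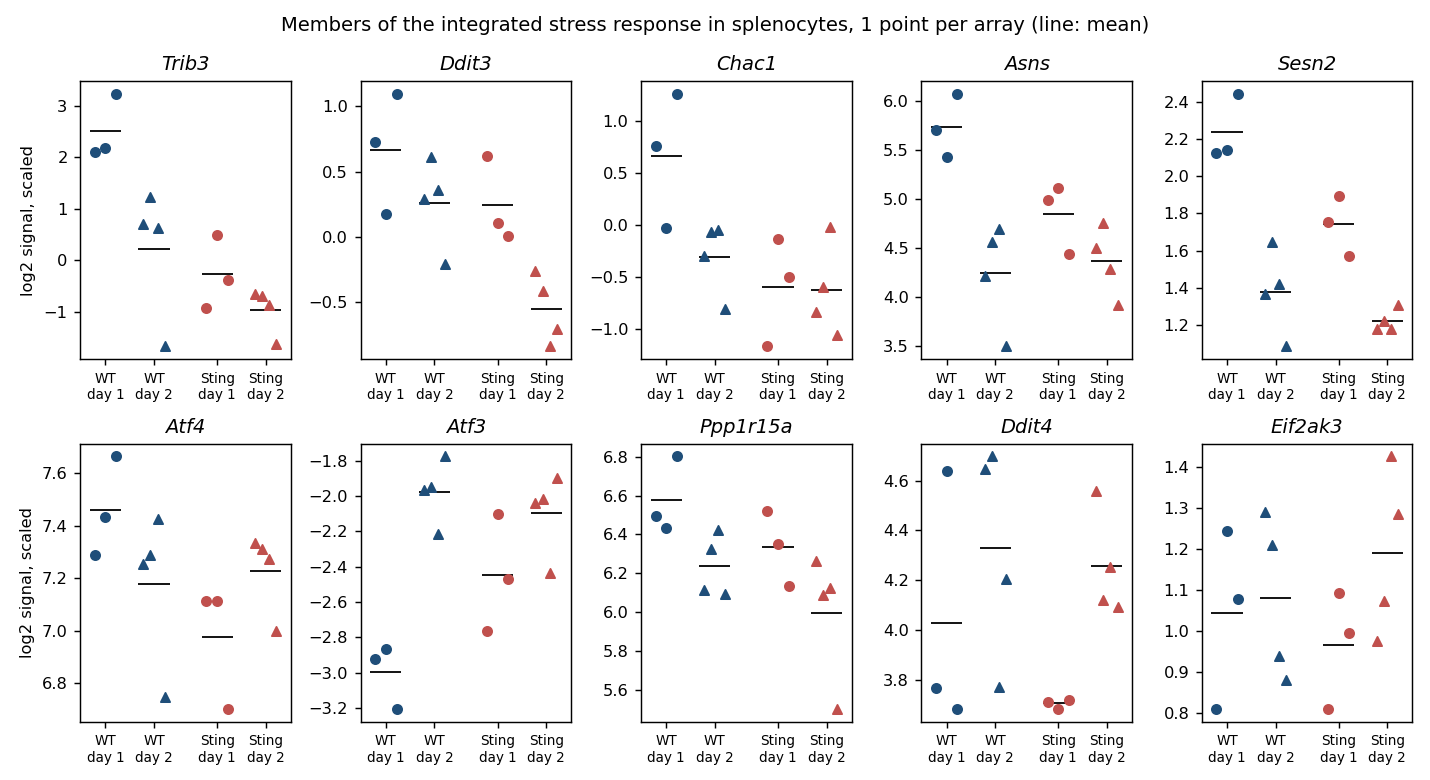
Log2 signal, scaled to each array's 75th percentile, of the 10 members, with 1 point per array, WT in blue and Sting gt/gt in red, circles for scan day 1 and triangles for scan day 2, and a line at the mean of each genotype and day. Trib3 was highest in the 3 WT arrays of scan day 1 (mean 2.51) and lowest in WT replicate 7 (-1.68). The y axes differ between panels.

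Of the members that encode transcription factors, Ddit3, which encodes CHOP and acts downstream of ATF4, had the largest difference between genotypes. Its log2 signal ran from -0.21 over a median of 0.36 to 1.10 in WT, and in Sting gt/gt mice it ran from -0.84 over -0.26 to 0.62. The difference was -0.65 (standard error 0.23), with -0.42 on scan day 1 and -0.82 on scan day 2. On scan day 2 all 4 Sting gt/gt arrays lay below all 4 WT arrays, which 6.78% of all genes tested did in this direction.

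Atf4, the factor at the center of the response, differed by -0.18 (standard error 0.14). Its WT values ran from 6.75 over 7.29 to 7.66 and its Sting gt/gt values from 6.70 over 7.12 to 7.33, so the groups overlapped widely. The Atf4 difference was -0.48 on scan day 1, where the groups did not overlap, and 0.05 on scan day 2. A second Atf4 probe gave -0.29 over all arrays, -0.42 on scan day 1 and -0.20 on scan day 2. The change of sign on scan day 2 was seen with the brighter probe only. The paper's supplement lists Atf4 under apoptosis as down in Sting gt/gt mice. The Atf4 difference ran from -0.11 without Sting gt/gt replicate 3 and -0.12 without WT replicate 3 to -0.27 without WT replicate 7. Since Atf4 is controlled through its translation, the mRNA level leaves the ATF4 protein unmeasured.

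Atf3, a stress-induced factor of the same family, had a higher mean in Sting gt/gt mice. It was lowest in WT at -3.21, with a median of -2.22 and a highest value of -1.78, and the Sting gt/gt arrays ran from -2.76 over -2.10 to -1.90. Its difference was 0.17 (standard error 0.23). On scan day 1 all 3 Sting gt/gt arrays lay above all 3 WT arrays (difference 0.55), which 5.26% of all genes tested did in this direction, and on scan day 2 the difference was -0.12. Leaving out WT replicate 3 gave 0.04 and leaving out WT replicate 7 gave 0.27.

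Among the effector genes, Chac1, whose product degrades glutathione, was lower by -0.72 (standard error 0.28) in Sting gt/gt mice. Its WT signals ran from -0.81 over -0.05 to 1.26 and its Sting gt/gt signals from -1.17 over -0.60 to -0.03. The highest Sting gt/gt array of Chac1, replicate 6, ranked 3 of all 14 arrays, below only WT replicates 3 and 1. Scan day 1 gave -1.26, with no overlap, and scan day 2 gave -0.32.

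Asns, asparagine synthetase, differed by -0.31 (standard error 0.34). In WT it ran from 3.49 over 4.70 to 6.08, and in Sting gt/gt mice from 3.92 over 4.50 to 5.11. The 3 WT arrays of scan day 1 were the 3 highest and WT replicate 7 the lowest of all 14. Scan day 1 gave -0.89 and scan day 2 gave 0.12. The second Asns probe gave -0.42 over all arrays, -0.84 on scan day 1 and -0.10 on scan day 2, with no change of sign. The Asns difference turned on single arrays: it was -0.11 without WT replicate 3, -0.18 without WT replicate 1 and -0.54 without WT replicate 7, and leaving out Sting gt/gt replicate 7 gave -0.20.

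Sesn2, a leucine sensor that restrains mTORC1, followed the same order. The WT range was 1.09 to 2.44 (median 1.65) and the Sting gt/gt range 1.18 to 1.90 (median 1.31). Sesn2 differed by -0.30 (standard error 0.21), with -0.50 on scan day 1, where the groups did not overlap, -0.16 on scan day 2 and -0.19 without WT replicate 3. Ddit4, another brake on mTORC1, differed by -0.18 (standard error 0.20) between ranges of 3.68 to 4.70 in WT and 3.68 to 4.56 in Sting gt/gt mice. Without WT replicate 2, 4 or 5 the Ddit4 difference was -0.11, -0.11 or -0.10.

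Ppp1r15a and Eif2ak3 act on eIF2 itself. Ppp1r15a, or GADD34, brings a phosphatase to eIF2 and closes the response, and it differed by -0.24 (standard error 0.15) over all arrays and by -0.24 on each scan day. Without Sting gt/gt replicate 7 it was -0.14, and on the first slide, with 2 WT arrays and 1 Sting gt/gt array, it was 0.06. Its WT range was 6.09 to 6.80 and its Sting gt/gt range 5.50 to 6.52. Eif2ak3, or PERK, is the kinase that senses load in the endoplasmic reticulum, and it differed by 0.03 (standard error 0.12). Eif2ak3 was the steadiest member, with a range of 0.62 over all 14 arrays against 4.92 for Trib3. Its sign changed with the setting: it was -0.03 without scaling and -0.01 after normexp and quantile normalization.

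In all, 8 of the 10 members had a lower mean in Sting gt/gt mice, against 44.2% of all genes, and 6 were lower on both scan days, against 17.1%. These counts use each gene's brightest probe. By their second probes Atf4 and Asns were lower on both days as well. By limma, 3 members were past the unadjusted p of 0.05 that the study used, namely Trib3, Ddit3 and Chac1, all lower, against 3.54% of all genes in either direction and 1.63% lower. The members were chosen with this comparison in view, so these counts are given as a description and nothing is read from them. Trib3 was not past this threshold within scan day 2 (-1.19), nor was Chac1 within scan day 2 (-0.32) or by the Mann-Whitney test. Ddit3 was not past it within scan day 1 (-0.42) or with slide as a random block (-0.46, standard error 0.24) or as a fixed block (-0.33). On scan day 1 the genotypes did not overlap in 5 members that were lower (Trib3, Atf4, Chac1, Asns and Sesn2), against 3.77% of all genes, and in 1 that was higher (Atf3), against 5.26%. The median difference of the members was -0.27, against 0.02 over all genes. In the log2 table that the authors deposited, 8 members were again lower, with -1.76 for Trib3, -0.63 for Ddit3 and -0.64 for Chac1, and WT replicate 7 was again the lowest array of Trib3 (7.16, against 7.24 to 8.99 in Sting gt/gt mice).

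**Figure D2:**
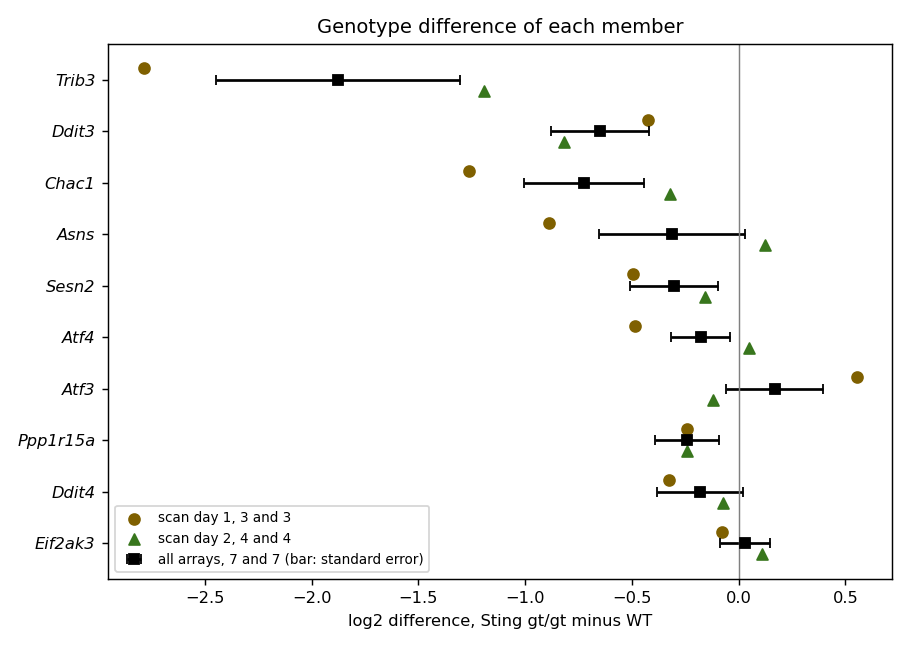
Log2 difference of each member, Sting gt/gt minus WT, over all arrays (black squares, bars are standard errors from limma, n = 7 and 7), within scan day 1 (brown circles, n = 3 and 3) and within scan day 2 (green triangles, n = 4 and 4). Trib3 lay at -1.88 over all arrays, -2.79 on scan day 1 and -1.19 on scan day 2. By the brightest probe, which is shown, Atf4, Asns, Atf3 and Eif2ak3 had opposite signs on the 2 days. The second probes of Atf4 and Asns, not shown, were lower on both days.

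Single arrays stood out across the members. WT replicate 7 was the lowest of the 7 WT arrays in 7 of the 10 members, against 17.8% of all genes. WT replicate 3 was the highest WT array in 7 of the 10 members, against 20% of all genes. In Atf3 the order was turned, with WT replicate 7 at the top of all 14 arrays and WT replicate 3 at the bottom.

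**Figure D3:**
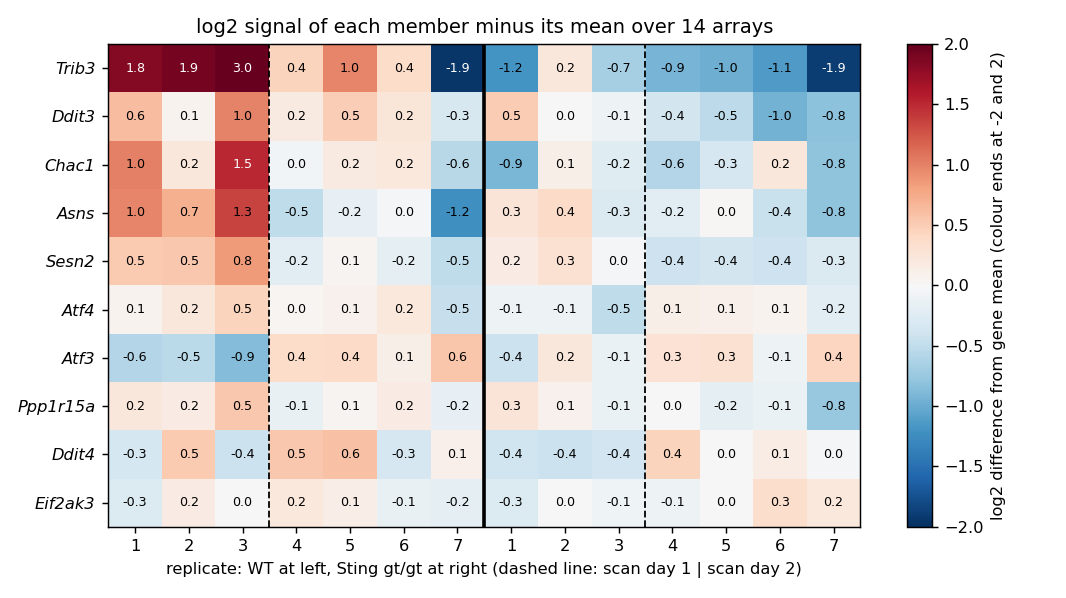
Log2 signal of each member minus its mean over the 14 arrays, with WT replicates at left and Sting gt/gt replicates at right of the solid line, and dashed lines between scan days. In Trib3, WT replicates 1 to 3 stood highest, and in Atf3 WT replicate 7 stood highest and WT replicate 3 lowest.

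The scan days were read apart when the members were chosen, by the genotype difference on each, so the comparison of the days below is not independent of that choice. In a limma model that also held genotype, 6 of the 10 members passed an adjusted p of 0.05 for the scan day, against 38.8% of all genes. Lower on scan day 2 were 5 members, against 20.6% of all genes, and 1 member was higher, against 18.3%. Sesn2 fell by 0.69 (standard error 0.11, adjusted p = 0.000168 by limma), Asns fell by 0.99 (standard error 0.24, adjusted p = 0.00442 by limma) and Trib3 fell by 1.48 (standard error 0.45, adjusted p = 0.0169 by limma). Ddit3 (-0.60, adjusted p = 0.0140 by limma) and Ppp1r15a (-0.34, adjusted p = 0.0403 by limma) fell as well, though Ppp1r15a lost its call in 14 of 24 alternatives other than the deposited table, and Atf3 rose by 0.68 (standard error 0.15, adjusted p = 0.00243 by limma). Chac1 (-0.50), Ddit4 (0.43), Eif2ak3 (0.13) and Atf4 (-0.01) did not pass.

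Each array is of 1 mouse by the study's figure legend, so the 2 scan days hold different mice. Whether they also stand for different cohorts, cages or extractions is not given in the sources used here. In the deposited log2 table no gene and no member differed between scan days (0 of 24908 genes at an adjusted p under 0.05 by limma, and 0 of 10 members at an unadjusted p under 0.05), and the median size of the difference between days over 56605 probes was 0.08 against 0.33 in the scanner signals. In that table Trib3 stood at -0.64 on scan day 2 relative to scan day 1. How the authors normalized the table is not given in the sources used here.

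The genotype difference was then set side by side between scan days, with limma's interaction, as the difference on scan day 2 minus that on scan day 1. It was 1.59 (standard error 0.82) for Trib3, 1.01 (standard error 0.40) for Asns, 0.53 (standard error 0.24) for Atf4 and -0.67 (standard error 0.25) for Atf3. No member passed an adjusted p of 0.05, against 0.49% of all genes, and 3 of 10 had an unadjusted p under 0.05 (Atf3, Asns and Atf4), against 18.4% of all genes. The same genotype differences by day were in view when the members were chosen, so these values are a description and nothing is read from the counts.

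The members moved together over the arrays to different degrees. Across all 14 arrays, which share 2 scan days and 2 genotypes, Pearson's r with Trib3 was 0.88 for Chac1, 0.85 for Sesn2, 0.83 for Asns, 0.77 for Ddit3, 0.73 for Ppp1r15a and 0.69 for Atf4. It was 0.02 for Eif2ak3, -0.04 for Ddit4 and -0.66 for Atf3. After the mean of each genotype on each scan day was removed, r with Trib3 was 0.80 for Asns, 0.79 for Atf4, 0.76 for Sesn2 and 0.70 for Chac1, and -0.16 for Atf3. The closest pair on that scale was Atf4 with Asns, at 0.91. In WT mice alone r of Trib3 with Atf4 was 0.91 and in Sting gt/gt mice alone -0.05 (7 arrays each), a contrast for which no test was made.

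Of 14723 genes with a symbol, the 6 whose pattern over the 14 arrays was most like that of Trib3 were Ttc9c (r = 0.90), Herc1 (0.90), Atf5 (0.89), Srsf10 (0.88), Mbd4 (0.88) and Mthfd2 (0.88). Within scan day 1 their r lay between 0.86 for Srsf10 and 0.94 for Atf5 and Mbd4 (6 arrays), and within scan day 2 between 0.72 for Atf5 and 0.86 for Herc1 (8 arrays). Atf5 is a close relative of Atf4 and Mthfd2 a mitochondrial enzyme of one-carbon metabolism, and both are known ATF4 targets. Chac1 ranked 7 and Sesn2 13 in this order, Asns 28 and Ddit3 88, so 4 members stood among the first 100 of the 14723 genes. The genotype differences with which the members were chosen are part of r over the 14 arrays, so nothing is read from this count. The lowest r were those of Zfyve28 (-0.90), Dgke (-0.90) and Zfp865 (-0.88), at -0.87, -0.92 and -0.95 within scan day 1 and -0.87, -0.79 and -0.76 within scan day 2.

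**Figure D4:**
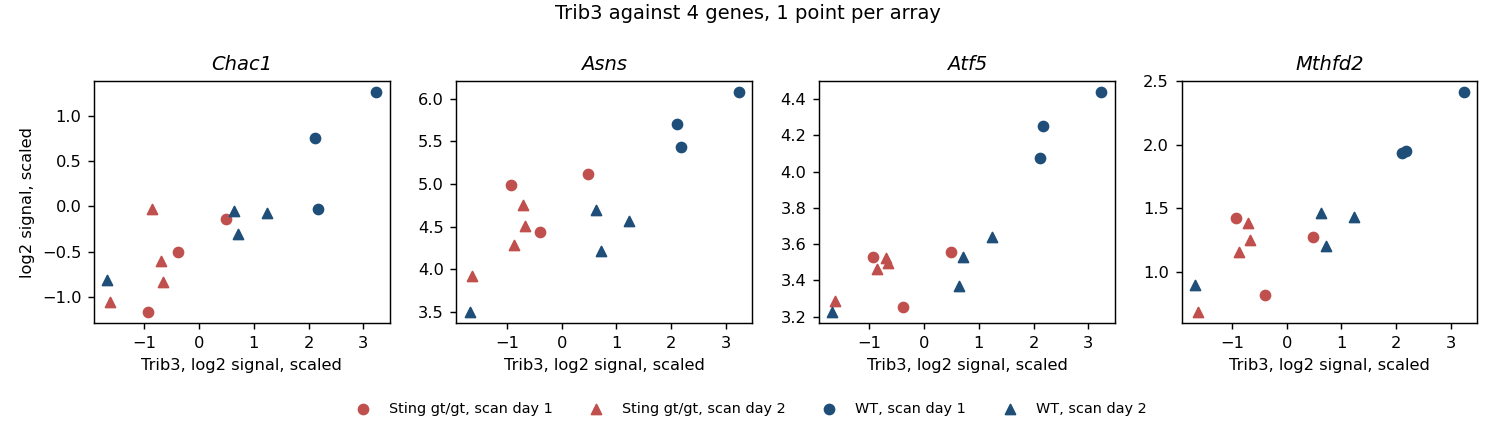
Log2 signal of Chac1, Asns, Atf5 and Mthfd2 (y axes) against that of Trib3 (x axes), scaled to each array's 75th percentile, with 1 point per array, WT in blue, Sting gt/gt in red, circles for scan day 1 and triangles for scan day 2. The WT arrays of scan day 1 lay at the upper right of each panel, apart from 1 in Chac1, and r over the 14 arrays was 0.88, 0.83, 0.89 and 0.88.

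The wider pathway was read from a list of 93 other genes, of which 87 were tested. In Sting gt/gt mice 47 of these had a lower and 40 a higher mean, with a median difference of -0.01 against 0.02 over all genes. By limma, 5 (5.75%) passed an unadjusted p of 0.05, 4 lower and 1 higher, against 3.54% of all genes. None passed an adjusted p of 0.05. On scan day 1, 67 of the 87 were lower (median -0.17, against 0.003 over all genes), and on scan day 2, 33 were (median 0.08, against 0.04). In the interaction 1 of the 87 passed an adjusted p of 0.05 by limma, against 0.49% of all genes. Slide and genotype cannot be told apart on scan day 2.

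Genes of amino acid transport held most of the calls. Of 9 transporters 7 had a lower mean and 3 fell, namely Slc6a9, a glycine carrier (-0.59, standard error 0.20), Slc1a5, a glutamine carrier (-0.33, standard error 0.11), and Slc3a2, the heavy chain of several exchangers (-0.31, standard error 0.11). Their WT ranges were 5.27 to 6.14, 3.63 to 4.21 and 4.12 to 4.80, and their Sting gt/gt ranges 4.52 to 6.07, 3.37 to 3.86 and 3.91 to 4.45, so the groups overlapped in all 3. The 3 calls held when each array was left out in turn. Slc3a2 lost its call as the mean over its probes (-0.13), and Slc1a5 and Slc6a9 lost theirs with slide as a random block (-0.25 and -0.41). Outside the runs with an array left out, the smallest falls were -0.14 for Slc1a5 and -0.16 for Slc6a9. On the first slide the Sting gt/gt array of Slc6a9 (6.07) lay above both WT arrays (5.91 and 5.65). That of Slc1a5 (3.86) lay between its WT arrays (3.95 and 3.63). On the second slide, with 1 array of each genotype, Sting gt/gt was lower in Slc6a9 (5.39 against 6.14) and Slc1a5 (3.61 against 4.03). Slc3a2 was lower on both slides. The highest transporter was Slc7a3 at 0.34 (standard error 0.32).

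Of 10 tested genes of amino acid and one-carbon synthesis, Mthfd2 fell (-0.47, standard error 0.21), with -0.93 on scan day 1 and -0.13 on scan day 2. Its call was lost on leaving out WT replicate 1, 2 or 3 or Sting gt/gt replicate 3, 6 or 7 (-0.34 to -0.47). At the other end of this list Gpt2, an alanine aminotransferase, stood at 0.30 (standard error 0.22), and passed with the replicate number as a block (unadjusted p = 0.0288 by limma). Of 13 genes of aminoacyl-tRNA synthetases and tRNA export none passed, from Aars at -0.30 to Xpot at 0.15. All 13 were lower on scan day 1 and 4 on scan day 2.

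No gene of the core machinery passed. Of the kinases other than Eif2ak3, Eif2ak1 stood at -0.32 (standard error 0.17) and Eif2ak4 at 0.15 (standard error 0.16). The 8 subunits of eIF2 and eIF2B lay between -0.06 (Eif2s2) and 0.19 (Eif2b1), and the 6 genes of eIF2 phosphatase and kinase inhibitors between -0.10 (Ppp1r15b) and 0.12 (Ppp1ca), with no call in either list. Of 5 further transcription factors none passed, from Atf5 at -0.35 (standard error 0.18) to Cebpb at 0.20 (standard error 0.19). This count depended on the setting for Atf5 and for Cebpg (-0.32, standard error 0.16), which was named after its value was seen. Atf5 passed in 12 of 32 alternatives, among them scan day as a term (unadjusted p = 0.0270 by limma) and slide as a fixed block (unadjusted p = 0.000274 by limma). Cebpg passed in 11 of 32, among them scan day as a term (unadjusted p = 0.00107 by limma) and the replicate number as a block (unadjusted p = 0.00369 by limma).

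Of 11 further targets of ATF4 or CHOP none passed, from Gadd45a at -0.33 (standard error 0.28; unadjusted p = 0.0125 by limma with the replicate number as a block) to Ero1a at 0.11 (standard error 0.15). The other Tribbles genes stood at 0.08 (Trib1) and 0.00 (Trib2). The 10 genes of the other arms of the unfolded protein response lay between -0.12 for Dnajb9 and 0.35 for Sdf2l1, a chaperone partner of the endoplasmic reticulum. Sdf2l1 rose (standard error 0.14), with 0.08 on scan day 1 and 0.56 on scan day 2, and lost its call without WT replicate 4 or 5 or Sting gt/gt replicate 5 or 6 (0.26 to 0.32), and also in the fit blocked on replicate number (unadjusted p = 0.0540 by limma). The 10 neighbors of Trib3, Ddit4 and Sesn2 in AKT and mTORC1 signaling lay between -0.10 (Rheb) and 0.16 (Akt2), with no call.

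**Figure D5:**
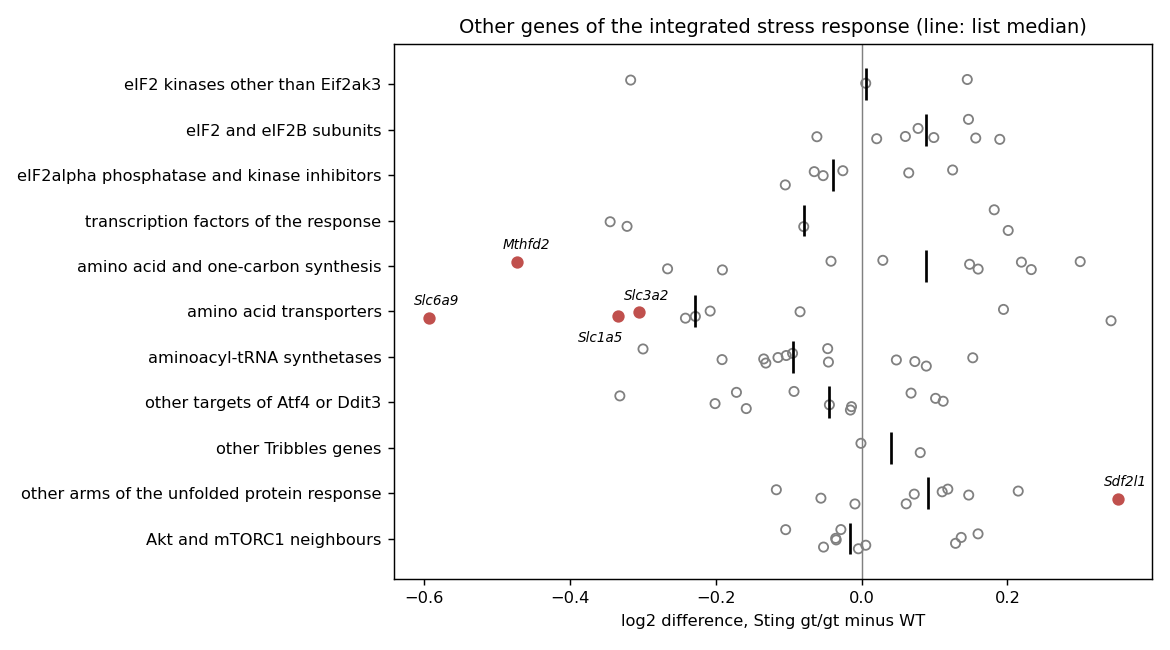
Log2 difference, Sting gt/gt minus WT, of the 87 other genes tested, 1 point per gene, in 11 lists, with a line at each list's median. Filled red points are the 5 genes past an unadjusted p of 0.05 by limma, 3 of them amino acid transporters, and open points are the others.

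Markers of other cell types and states were set beside Trib3. None of the markers of B cells (7 of 8 lower), plasma cells (2 of 7), T cells (2 of 8), neutrophils (1 of 9), macrophages and monocytes (3 of 11), dendritic cells (4 of 7) and NK cells (0 of 6) passed the unadjusted threshold between genotypes by limma. With scan day as a term 2 plasma cell markers and none of the others passed it, against 7.24% of all genes. B cell markers were lower in 1 of 8 on scan day 1 (median 0.24) and in 8 of 8 on scan day 2 (median -0.47). Plasma cell markers were lower in 5 of 7 (median -0.14) and 2 of 7 (median 0.60) on these days. Neutrophil markers were lower in 6 of 9 (median -0.11) and 0 of 9 (median 0.30). Erythroid markers were lower in 7 of 7, and Tfrc (-0.52) was among those that fell. The average erythroid level, a mean of log2 signals, spanned 4.80 to 5.60 in WT and 4.48 to 5.71 in Sting gt/gt arrays. It was lowest of the WT arrays in replicate 7, and correlated with Trib3 at 0.57 over the 14 arrays. The macrophage average was highest of the WT arrays in replicate 7 (4.37) and correlated with Trib3 at -0.72. The NK cell average correlated with Trib3 at -0.61 and was lowest of the WT arrays in replicate 3 (-0.40). The B cell average was highest of the WT arrays in replicate 7 (3.37) and lowest in replicate 3 (2.42), with an r of -0.31. Heat shock genes were lower in 5 of 5, and Hspa1b (-0.58) and Hspa8 (-0.22, with an r of 0.84 with Trib3) fell, while 1 of 12 immediate early genes, Ier3, rose (0.28). The part of these in the Trib3 values was not tested.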

How the data were processed

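Total RNA of splenocytes from 14 mice (7 WT, 7 Sting gt/gt, 100 ng per labelling reaction) was read on one-colour Agilent arrays. The authors made the deposited intensity values with Agilent Feature Extraction 11.0.1.1, which corrects each spot's background, and also deposited a table of log2 values whose normalization is not given in the sources used here. Here the processed intensity was put on the log2 scale, outlier-flagged spots were dropped, the spots of a probe averaged, and values taken relative to the 75th percentile of their array. The filter kept 31766 probes that were well above background on 7 or more of the 14 arrays, and a gene was read from its brightest kept probe (24908 genes). Symbols came from RefSeq accessions, which named 58.3% of probes. Probes of Atf4 and Asns, 2 each, were also read apart.

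Genotypes were compared with limma 3.58.1 in R 4.3.3 without covariates (unadjusted p under 0.05), scan days with genotype as a term, and the genotype difference between scan days by an interaction (both Benjamini-Hochberg adjusted over all genes). Precision is limited by how many arrays there are. Each array is of 1 mouse by the study's figure legend. The genotype fit held no term for the scan day, so its p-values measure the spread between mice and between scan days together. With scan day as a term the standard error of the Trib3 difference was 0.44 in place of 0.57. Scripts were tested on simulated data with 200 changed genes. The members and the 21 lists were chosen with earlier results of these data known. The text names all members, other pathway genes past the threshold, the lowest and highest gene of each pathway list, and the 6 highest and 3 lowest r with Trib3. Arrays of the 2 genotypes with the same replicate number deviated together from their group means (r = 0.155 to 0.533 over genes), and with the means of each genotype and scan day removed r was -0.407 to 0.249, so the numbers were also run as a block. The alternatives covered scaling, background, the deposited table, filters, probes, array weights, tests, replicate number, scan day, slide and each array left out. Counting and plotting used Python 3.11.15 with matplotlib 3.10.9. One erythroid marker gene is not reported by name here.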

Additional observations from a re-analysis of the deposited data

Results flagged for a closer look

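In 41 named genes and 2 genotypes, 82 groups of 7 arrays were checked for an array far from the rest by Dixon's ratio, the gap to the nearest array over the whole range, against its critical value for 7 samples. Chance passes about 1 group in 20, and 2 passed. Ppp1r15a in Sting gt/gt mice had replicate 7 at 5.50, below the next array at 6.09, a ratio of 0.578. Mbd4 in Sting gt/gt mice had replicate 2 at 0.59, above the next array at 0.26, a ratio of 0.626.

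Of the 87 other genes of the pathway, Hsp90b1, an endoplasmic reticulum chaperone, had a genotype difference that changed between scan days. It was lower in Sting gt/gt mice by -0.38 on scan day 1, where the 3 Sting gt/gt arrays (5.62 to 5.97) lay below the 3 WT arrays (6.13 to 6.23). It was higher by 0.66 on scan day 2, where the 4 Sting gt/gt arrays (6.45 to 6.88) lay above the 4 WT arrays (5.91 to 6.19). The change was 1.03 (adjusted p = 0.0371 by the limma interaction). Of the 7 plasma cell markers 2 passed in this interaction too, also lower on scan day 1 and higher on scan day 2. They were Sdc1 (-0.23 and 0.86, adjusted p = 0.0371 by limma) and Derl3 (-0.69 and 0.66, adjusted p = 0.0494 by limma). Slide and genotype cannot be told apart on scan day 2, and the cause was not tested.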

How the results depend on the processing

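Trib3 was lower in Sting gt/gt mice under all 30 alternatives, from -2.94 with slide as a fixed block, which rests on 5 arrays of scan day 1, to -1.19 within scan day 2, and from -2.36 (without WT replicate 7) to -1.54 with each array left out in turn. With the replicate block its value stayed at -1.88, Sesn2 joined the 3 members past the unadjusted threshold (4 in all), 7 other pathway genes in place of 5 passed (Gadd45a, Gpt2 and, named after its value was seen, Cebpg joined, and Sdf2l1 left), and no member passed in the interaction. Ddit3, Chac1, Sesn2, Ppp1r15a and Ddit4 were lower under all 30. Atf4 and Asns were lower under 30 of 31, and within scan day 2 they were higher by the brightest probe. Atf3 was lower under 1 and Eif2ak3 under 9 of 30. Members lower numbered 7 to 9 of 10. Members past the unadjusted threshold numbered 3, but 1 within scan day 2, 2 with slide as a random block and by the Mann-Whitney test, 4 after quantile and after normexp and quantile normalization, with the replicate block and with scan day as a term, 4 with slide as a fixed block (3 lower), 5 in the deposited table and 6 within scan day 1 (5 lower), with 3 to 4 when arrays were left out.

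Of the 87 other pathway genes 5 passed, against 3.54% of all genes. Beside the share of all genes under the same setting, 8 passed after quantile normalization (3.81%), 8 after normexp and quantile normalization (3.64%), 16 in the deposited table (7.74%), 19 with array weights and an intensity trend (13 higher; 17.7%), 12 with scan day as a term (10 lower; 7.24%), 11 within scan day 1 (all lower; 3.77%) and 24 within scan day 2 (19 higher; 23.7%). With arrays left out the count ran from 3 (without Sting gt/gt replicate 6; 1.98%) to 11 (without WT replicate 7; 3.83%) and was 9 without Sting gt/gt replicate 1 (7.88%). The methods' t-test called 7 (994 of all genes) and the Mann-Whitney test 6 (763), with none after adjustment.

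Between scan days 6 members passed, 0 in the deposited table, 5 to 8 under the other alternatives and 5 to 7 with arrays left out. Ppp1r15a lost its call in 14 of 24 alternatives other than the deposited table. Atf4 turned from -0.01 to 0.31 after quantile normalization (adjusted p = 0.0494 by limma). In the interaction no member passed under any alternative. No paired analysis was possible for the scan days because each replicate number lies within 1 day. The causes were not tested. Since all member probes were well above background on all 14 arrays, dim signal set no bound on a member.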
